A study of Mus musculus with 26 samples.

Results

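The genes described here were 9 negative regulators of cell division, 9 of 35865 genes in the data: the antiproliferative genes Btg1, Btg2 and Tob1, the Schlafen member Slfn2, and the cyclin-dependent kinase (CDK) inhibitors Cdkn1a (p21), Cdkn1b (p27), Cdkn2a (p16 and p19Arf), Cdkn2c (p18) and Cdkn2d (p19). They were listed by name and not by a threshold on measured values. Other genes of the same pathways are given after them for context.

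The libraries came from CD8+ TCRTg101 T cells, whose transgenic receptor recognizes an antigen of C1498, a mouse myeloid leukemia line. The cells were labelled wild type, C57BL/6 and 6 weeks of age, although the study's methods describe the transgenic line as bred onto a Rag2-/- background. For the libraries from leukemia-bearing mice, naive TCRTg101 cells labelled with the division dye CellTrace Violet (CTV) were transferred into mice. These mice received C1498 cells intravenously 1 day later, and the transferred cells were sorted again from spleen or liver. RNA was sequenced from low input in 14 libraries, and 1 further control library was prepared by standard oligo-dT priming. The control group held 3 spleen libraries, of which control 1 and control 2 were naive cells at day 0 and control 3 came from untreated, leukemia-free mice at day 18. The undivided library was CTVhi cells labelled spleen at day 18 of a leukemia-bearing mouse, so these cells had been in the host but had not diluted the dye. In leukemia-bearing mice, early spleen (2 libraries) and early liver (2 libraries) were taken at day 7, mid spleen (1 library) at day 14, mid liver (3 libraries) at days 13, 13 and 14, and late liver (2 libraries) at days 18 and 16. The receptor has a single specificity, so the data describe 1 clone's cells and not a natural repertoire. The labels do not say whether libraries came from separate animals, so p-values measure the spread between these samples, which may in part be technical. All mid and late liver cells differed from the controls both in leukemia exposure and in tissue. Controls 1 and 2, labelled naive at day 0, also differed from them in day, and so in time after transfer. Exposure and tissue cannot be told apart in comparisons with the controls, nor can day where controls 1 and 2 take part.

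Quiescence in naive T cells is an actively held state. BTG and TOB proteins recruit the CCR4-NOT deadenylase to messenger RNAs and shorten their poly(A) tails, and Slfn2 is known from mice in which its mutation leaves T cells unable to stay quiescent. Cip/Kip inhibitors (Cdkn1a, Cdkn1b) bind cyclin-CDK complexes, chiefly those of CDK2, while INK4 inhibitors (the p16 product of Cdkn2a, Cdkn2c and Cdkn2d) bind CDK4 and CDK6 and keep cyclin D from them. The other reading frame of Cdkn2a encodes p19Arf, which protects p53 by holding Mdm2.

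The stretches that precede the annotated start sites are shown for the 4 members that lay below all controls, for Cdkn2c, which lay above them, and for Cdkn2a, counted mostly in late liver, with bases of annotated exons left out. They were read 5′ to 3′ on each gene's own strand from RefSeq on GRCm38.p6, and motif matches are in capitals. The motifs searched on both strands in the 250 bases before each start were E2F (TTTCCCGC or TTTGGCGC), CHR (TTTGAA), FOXO (TGTTTAC) and KLF (CCACACCC).

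Btg1, chr10:96616751-96617000, plus strand: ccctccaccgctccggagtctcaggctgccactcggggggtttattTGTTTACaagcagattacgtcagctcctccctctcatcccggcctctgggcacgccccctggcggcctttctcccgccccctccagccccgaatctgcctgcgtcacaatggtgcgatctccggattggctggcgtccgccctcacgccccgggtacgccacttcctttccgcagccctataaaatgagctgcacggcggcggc

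Btg2, chr1:134079156-134079405, minus strand: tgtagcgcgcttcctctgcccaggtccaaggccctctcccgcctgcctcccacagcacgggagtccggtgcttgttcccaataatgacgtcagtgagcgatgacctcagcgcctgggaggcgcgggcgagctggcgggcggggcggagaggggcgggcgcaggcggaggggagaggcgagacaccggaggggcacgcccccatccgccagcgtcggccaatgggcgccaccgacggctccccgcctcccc

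Tob1, chr11:94211204-94211453, plus strand: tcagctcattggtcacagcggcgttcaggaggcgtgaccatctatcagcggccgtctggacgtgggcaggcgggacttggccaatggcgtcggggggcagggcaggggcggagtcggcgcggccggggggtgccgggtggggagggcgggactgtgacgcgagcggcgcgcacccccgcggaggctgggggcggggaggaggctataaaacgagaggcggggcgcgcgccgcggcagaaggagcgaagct

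Cdkn1b, chr6:134920151-134920400, plus strand: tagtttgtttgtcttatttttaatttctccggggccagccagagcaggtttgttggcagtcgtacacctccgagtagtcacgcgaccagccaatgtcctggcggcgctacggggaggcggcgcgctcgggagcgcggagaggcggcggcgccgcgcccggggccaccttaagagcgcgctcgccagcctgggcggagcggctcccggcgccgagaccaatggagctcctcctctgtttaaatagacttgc

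Cdkn2c, chr4:109665373-109665609, minus strand, before the start of Cdkn2c-201: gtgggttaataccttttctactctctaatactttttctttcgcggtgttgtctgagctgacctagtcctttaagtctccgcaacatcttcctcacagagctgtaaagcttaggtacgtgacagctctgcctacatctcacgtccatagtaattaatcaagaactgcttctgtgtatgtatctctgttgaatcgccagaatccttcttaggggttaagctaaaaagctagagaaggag

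Cdkn2a, chr4:89294654-89294869, minus strand, before the upstream start: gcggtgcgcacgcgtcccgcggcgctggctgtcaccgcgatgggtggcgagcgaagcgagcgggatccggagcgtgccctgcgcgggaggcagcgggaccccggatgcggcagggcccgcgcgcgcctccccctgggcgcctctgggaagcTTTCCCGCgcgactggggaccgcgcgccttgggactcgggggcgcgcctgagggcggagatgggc

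Among all 9 members, 2 matches were found. Btg1 held the FOXO letters 204 bases before its start, a word present in 3.17% of 32851 promoters of the same length. The upstream start of Cdkn2a held the E2F word TTTCCCGC 99 bases before it, which 0.895% of promoters held, and 1.30% held either E2F word. The CHR letters were in 16.0% of promoters and the KLF letters in 3.20%, and no member held either. A match is a run of letters and not a measured binding site.

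Library totals ranged from 22918996 to 71358287 estimated counts over the 14 low-input libraries, with a median of 34349318. Levels are given as CPM (counts scaled to a common library total) after scaling by the trimmed mean of M values (TMM). Places of libraries against the controls are on that scale unless another is named, and some of them changed on other scales. Tests are edgeR's quasi-likelihood test over 14600 genes, with Benjamini-Hochberg adjusted p-values and a threshold of 0.05. The 7 T cell markers (Cd3d, Cd3e, Cd3g, Cd8a, Cd8b1, Cd247 and Lck) were above 0 in every library, with summed CPM of 3890 to 9078. Markers of other cells were unevenly spread over the controls. The 5 erythroid genes summed to 5223 CPM in control 1 and 20350.0 in control 2 against 136 in control 3, with 1.18 to 215 in the other libraries. The 6 myeloid genes summed to 505.5, 99.9 and 8.67 CPM in controls 1, 2 and 3 and to 3.025 to 51.9 elsewhere, and B cell markers stayed at 11.7 to 44.2 in every group. The 3 NK cell genes summed to 1.46 to 5.63 CPM in controls, 11.6 and 17.03 in late liver, 4.38 to 14.6 in mid liver, and 23.3 in early liver 1 against 1.19 in early liver 2. The 6 hepatocyte genes reached 200.1 CPM in mid liver 1, 326.6 in late liver 1 and 74.0 in late liver 2. The 319 CPM of hepatocyte genes in control 1 were almost all Trf, and Alb was at 0.0325 CPM or below in the controls. The part of these cells in the results below was not tested. In bulk libraries fewer cells of a type and less RNA per cell cannot be told apart. The library titles carry the prefix TG (control 1, mid liver 1, late liver 1) or XC (the rest), which entered the fits as a term.

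**Figure D1:**
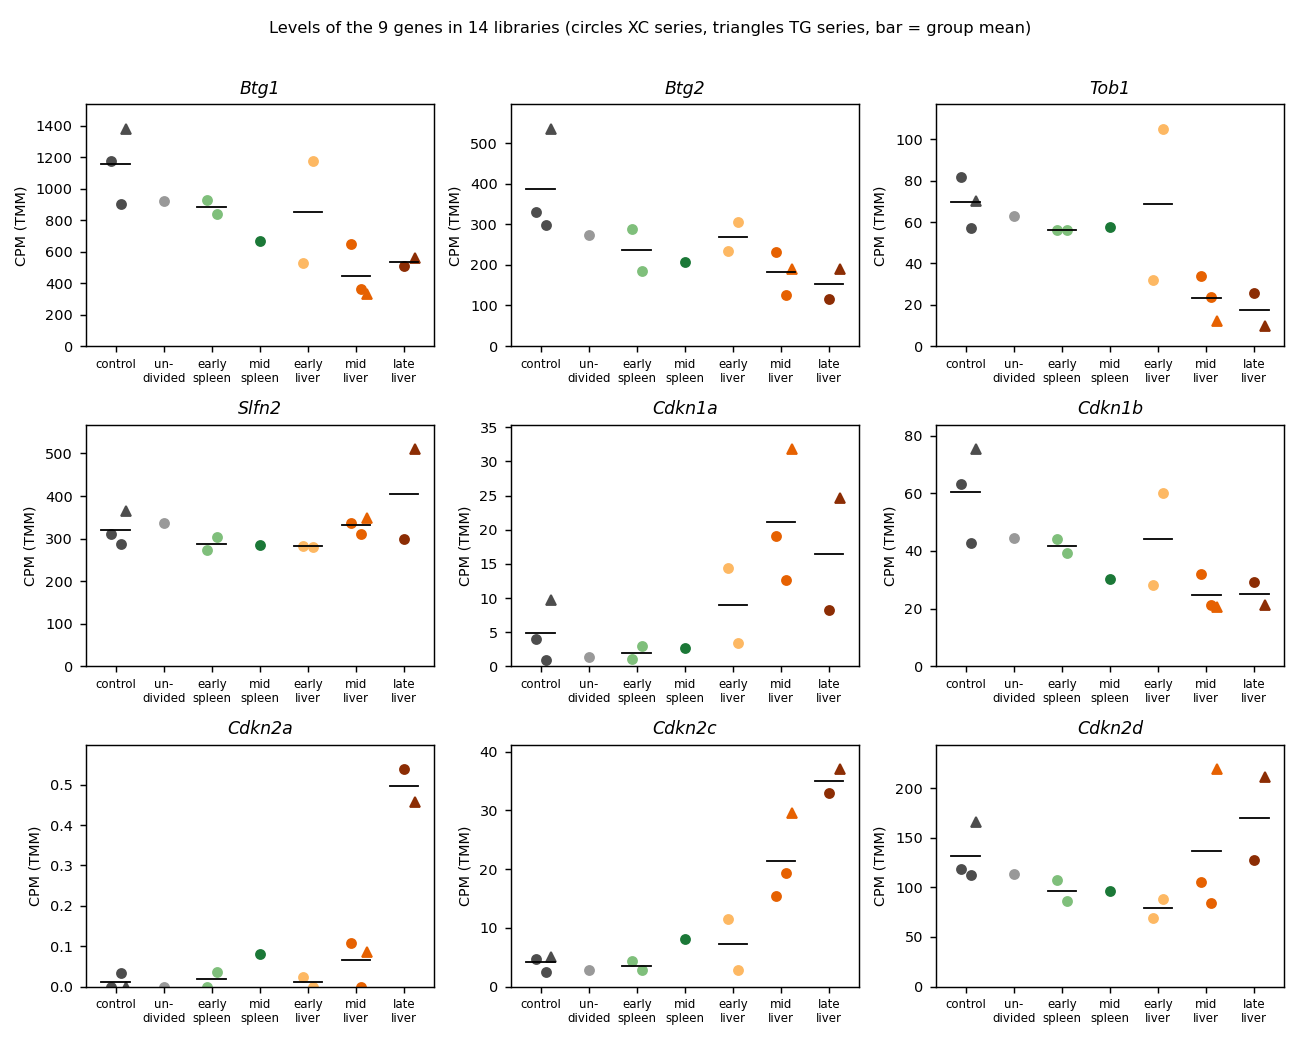
Levels of the 9 genes in CPM (TMM scaled, linear axis from 0) in each of the 14 low-input libraries, by group. Circles are XC libraries, triangles TG libraries and bars group means; Btg1, Btg2, Tob1 and Cdkn1b sat below all controls in the 5 mid and late liver libraries, Cdkn2c sat above them, and Slfn2 and Cdkn2d overlapped.

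In mid and late liver, TCRTg101 cells held less Btg1, Btg2, Tob1 and Cdkn1b message than the controls and more Cdkn2c, while Slfn2 and Cdkn2d stayed within overlapping ranges. In mid liver 6 of the 8 members tested passed the threshold, where 31.3% of all genes did. Of these, 2 were higher (17.3% of all genes were called higher) and 4 were lower (13.9% were called lower). In late liver 4 of 8 passed (37.5% of all genes), 1 higher (19.8%) and 3 lower (17.7%). With both stages combined against the controls, 6 of 8 passed (47.3% of all genes), 2 higher (23.5%) and 4 lower (23.8%). The median log2 fold change of the 8 members was -0.56 in mid and -0.48 in late liver, beside -0.06 and -0.03 over all genes. Cdkn2a failed the count minimum and entered none of these tests, only the alternative fit with no count filter in the closing section. Counted without a test on the TMM scale, 4 of 9 members lay below all 3 controls in all 5 mid and late liver libraries. So did 18.2% of 15449 genes, and 1 member lay above all controls, as did 18.8%. Calls over all genes, the members included, rested on single libraries. In mid liver no member passed without control 1 or without control 2 (1 of 14600 genes was called in each fit) or without mid liver 1 or mid liver 3 (0 genes each). The fold changes stayed of similar size, and with each library left out in turn Btg1 ranged from -1.76 to -1.10 and Cdkn2c from 2.14 to 2.62 on the log2 scale. In late liver no member passed without control 1 (19 genes called), late liver 1 or late liver 2 (0 genes each), and 2 (Btg2 and Cdkn2c) passed without control 2 (23.4% of genes called). There Btg1 ranged from -1.29 to -0.83 and Cdkn2c from 2.77 to 3.28. With both stages together, 6 of 8 members passed without control 2 (32.7% of genes), 0 without control 1 (0.0411%) and 2 of 8 without late liver 1 (26.3%). When control 3, the day 18 control, was the sole control, no member passed in either stage (1 gene of 14600 in mid and 0 in late liver), and all 6 kept their direction with other sizes. Tob1 then stood at -0.99 in mid and -1.23 in late liver, Cdkn1b at -0.69 and -0.60, Btg1 at -0.96 and -0.63, Btg2 at -0.85 and -1.20, and Cdkn2c at 2.86 and 3.53, on the log2 scale.

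Btg1 (chr10:96617006-96622809, plus strand, GRCm38 with GENCODE annotation, as for all genes here) was the most abundant of the 3 antiproliferative genes. Its protein is a small adaptor between RNA-binding proteins and the deadenylase CAF1. Btg1 stood at 1383, 1178 and 904 CPM in controls 1, 2 and 3, at 331, 649 and 364 in mid liver 1, 2 and 3, and at 559.9 and 508 in late liver 1 and 2. All 5 liver libraries lay below the lowest control. Btg1 was 2.61-fold lower in mid liver (log2 fold change -1.39 ± 0.37 SE, adjusted p = 0.0282). In late liver the value of -1.13 ± 0.42 did not pass (adjusted p = 0.0613), and both stages together gave -1.26 (adjusted p = 0.0142). The undivided library at 923 CPM and the early spleen libraries at 927 and 838 were close to control 3, and mid spleen at 670.0 lay below every control and above every mid and late liver library. The order of group means was control, undivided, early spleen, early liver, mid spleen, late liver, mid liver. In it mid spleen and late liver were the only neighbours whose ranges did not overlap. The undivided and mid spleen groups hold 1 library each, so their range is a single value, here and for the members below. The share of all genes with such gaps between neighbours was not counted.

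Btg2 (chr1:134075170-134079120, minus strand), the immediate-early relative of Btg1 and a known p53 target, measured 536, 330.5 and 297 CPM in the controls. It measured 191, 232 and 125 CPM in mid liver and 189.7 and 116 in late liver, again without overlap. The fold change was -1.05 ± 0.27 in mid liver (adjusted p = 0.0258) and -1.45 ± 0.31 in late liver (2.73-fold lower, adjusted p = 0.0139), on the log2 scale. On the TMM scale Btg2 was the only member for which the undivided library left the control range, at 274 CPM. The early spleen libraries were at 289.5 and 185 CPM and mid spleen at 206.5. On this scale every library from a leukemia-bearing mouse other than early liver 2, at 306, was thus below the lowest control. On plain CPM (without TMM) early liver 2 was at 325.7, just below the lowest control at 326.5. In TPM (scaled by transcript length) early spleen 1 was at 120, above the lowest control at 117. Control and undivided were the only neighbours in the order of group means without overlapping ranges.

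Tob1 (chr11:94211454-94215495, plus strand), a larger member of the family that also carries poly(A)-binding protein motifs, fell furthest of the 3. Its levels were 70.15, 81.7 and 57.3 CPM in the controls, 12.0, 34.0 and 23.9 in mid liver, and 9.61 and 25.4 in late liver. No liver library of these stages came near the control range. Tob1 was 3.36-fold lower in mid liver (log2 -1.75 ± 0.49, adjusted p = 0.0341) and 4.19-fold lower in late liver (-2.07 ± 0.57, adjusted p = 0.0275). In spleen Tob1 was at 62.7 CPM in the undivided and 57.5 in the mid spleen library, both inside the control range. Early spleen, at 56.2 and 56.4, lay just below it on this scale. In TPM the early spleen libraries were at 28.7 and 30.6, inside the control range of 26.6 to 35.7. Control, early liver and undivided overlapped in turn in the order of group means, as did mid and late liver. Undivided and mid spleen are single values, which cannot overlap unless equal. Early spleen lay just below mid spleen, by a small gap. Early spleen was also separate from mid liver (12.0 to 34.0 CPM).

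Slfn2 (chr11:83065112-83070678, plus strand) did not follow them. It measured 365, 311 and 288 CPM in the controls, 349, 335.5 and 311 in mid liver, and 511 and 299.5 in late liver. The ranges overlapped and only late liver 1 exceeded the highest control. That place depended on the scale. On plain CPM (without TMM) late liver 1 was at 369 and control 1 at 375. In TPM (scaled by transcript length) late liver 1 and 2 were at 167 and 164, below the lowest control at 181, and mid liver ranged from 140 to 199. The difference of both stages from control was 0.13 ± 0.16 on the log2 scale (adjusted p = 0.522), with a 95% interval of -0.23 to 0.49. Its sign depended on single libraries, as described in the closing section. Early liver libraries were at 283 and 280.4 CPM, early spleen at 272 and 304, mid spleen at 286 and undivided at 337. Only mid spleen and early liver, the last of the group means, did not overlap as neighbours, and the gap between them was small.

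The Cip/Kip inhibitors moved in opposite directions. Cdkn1b (chr6:134920401-134925513, plus strand), the inhibitor linked most closely with the resting state of lymphocytes, was at 75.4, 63.1 and 42.7 CPM in the controls, at 20.4, 32.0 and 21.4 in mid liver, and at 21.2 and 29.2 in late liver. Every library of these stages lay below the lowest control. Cdkn1b was 2.50-fold lower in mid liver (log2 -1.32 ± 0.35, adjusted p = 0.028) and 2.43-fold lower in late liver (-1.28 ± 0.40, adjusted p = 0.0361). The undivided library (44.3 CPM) and early spleen 1 (44.2) fell within the control range, and early spleen 2 (39.4) and mid spleen (30.2) lay below it. On plain CPM, with a lowest control of 46.9, early spleen 2 was inside the range at 47.7 and the undivided library below it at 46.4. Mid spleen was separate from its neighbours in the order of group means, early spleen above and late liver below, and all other neighbours overlapped.

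Cdkn1a (chr17:29090976-29100727, plus strand), which p53 is known to induce but which also responds to mitogens, was low in resting cells, at 9.68, 4.03 and 0.942 CPM in controls 1, 2 and 3. It was at 31.8, 19.1 and 12.6 CPM in mid liver and at 24.7 and 8.20 in late liver. All mid liver libraries exceeded every control, but late liver 2 lay below control 1. That place depended on the scale. In TPM late liver 2 was at 6.76, above control 1, the highest control, at 5.89. The change was 5.02-fold in mid liver (log2 2.33 ± 0.65, adjusted p = 0.0334) and 2.95-fold in late liver, where it did not pass (1.56 ± 0.69, adjusted p = 0.103). The controls themselves were widely spread, with the highest value in control 1, which also had the highest myeloid sum (505.5 CPM). Among mid and late libraries the highest values were in mid liver 1 and late liver 1, which also had the most Alb, at 85.9 and 131.7 CPM. Control 1, mid liver 1 and late liver 1 were also the low-input libraries with the TG prefix. The parts of the myeloid marks, of Alb and of the title series in these levels were not tested. With control 3 alone the log2 values were 3.97 and 3.27, over 1.5 times larger than with all 3. Outside the liver Cdkn1a was at 1.29 CPM in the undivided library, 1.06 and 2.95 in early spleen and 2.74 in mid spleen. Every pair of neighbours in the order of its group means (mid liver, late liver, early liver, control, mid spleen, early spleen, undivided) overlapped.

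Among the INK4 genes, Cdkn2c (chr4:109660876-109667189, minus strand), an inhibitor of CDK6 and CDK4 known in lymphocyte differentiation, was the only one of the 8 members tested that was called higher in both stages. Its levels were 5.03, 4.75 and 2.50 CPM in the controls, 29.6, 15.45 and 19.3 in mid liver, and 37.0 and 33.0 in late liver. Controls and liver libraries stood in full separation. Cdkn2c was 5.07-fold higher in mid liver (log2 2.34 ± 0.49, adjusted p = 0.022) and 8.07-fold higher in late liver (3.01 ± 0.53, adjusted p = 0.0103). The mid spleen library, at 8.10 CPM, was above all controls and below all mid and late liver libraries. The undivided (2.75 CPM) and early spleen libraries (4.29 and 2.87) stayed within the control range. In the order of group means late liver, mid liver and mid spleen were each separate from the next, mid spleen, early liver, control and early spleen overlapped in turn, and the undivided library came last. The difference of late from mid liver did not pass (log2 0.67 ± 0.51, adjusted p = 0.936).

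Cdkn2d (chr9:21288410-21291407, minus strand), whose p19 product is the INK4 inhibitor that oscillates with the cell cycle, measured 165.5, 118 and 112 CPM in the controls, 219, 106 and 84.5 in mid liver, and 212 and 128 in late liver. The 2 TG libraries of these stages exceeded every control and the XC libraries lay around or below them. For late liver 1 this held on the TMM scale only. On plain CPM it was at 153 and control 1 at 169.9, and in TPM it was at 95.5, below the lowest control at 106. The log2 difference of both stages together was 0.06 ± 0.18 (adjusted p = 0.817), with a 95% interval of -0.36 to 0.47. Early liver had the lowest group mean, with libraries at 68.7 and 88.8 CPM, and was separate from mid spleen (96.6 CPM), the next group above it. Undivided (114) and early spleen (107 and 86.4) were the other neighbours without overlap.

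Cdkn2a (chr4:89274471-89294653, minus strand) was near the limit of detection. It had 0, 0 and 1 estimated counts in the controls, 0 in the undivided library, 0 and 1 in early spleen, 3 in mid spleen, 1 and 0 in early liver and 5, 3 and 0 in mid liver. Late liver 1 and 2 had 21 and 19 counts, 0.457 and 0.539 CPM after TMM scaling. Late liver was thus the only group in which every library exceeded the limit that a count of 0 allows (3 counts, 0.042 to 0.131 CPM over the libraries). Summed over libraries, the rate in late liver was 56.7 times that in controls (40 counts against 1, 95% exact interval 9.61 to 2294) and 6.35 times that in mid liver (40 against 8, 2.93 to 15.7). These intervals cover counting error only and say nothing of the spread between libraries of a group. Of the 40 late counts, 27.2 were assigned to Cdkn2a-202, the transcript from the upstream start that encodes p19Arf, and 12.8 to Cdkn2a-201, which encodes p16. Their starts lie 12461 bases apart.

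**Figure D2:**
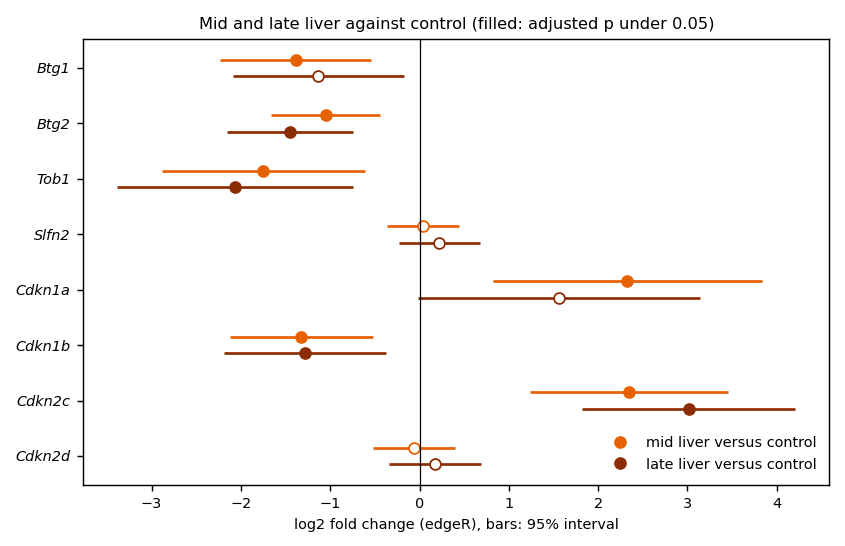
Log2 fold change of the 8 members tested, mid liver (orange) and late liver (brown) against control, with 95% intervals from edgeR. Filled points had an adjusted p under 0.05; Cdkn2c lay furthest to the right in late liver (3.01) and Tob1 furthest to the left (-2.07), while Slfn2 and Cdkn2d lay near 0.

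The same directions held within each title series. In the TG series, with 1 control and 1 library a stage, the log2 ratio to control in mid and late liver was -2.06 and -1.30 for Btg1, -2.55 and -2.87 for Tob1, -1.89 and -1.83 for Cdkn1b, and 2.56 and 2.88 for Cdkn2c. The XC series, with 2 controls, gave -1.04 and -1.03 for Btg1, -1.26 and -1.45 for Tob1, -0.99 and -0.86 for Cdkn1b, and 2.26 and 3.19 for Cdkn2c. Btg2 gave -1.49 and -1.50 in TG and -0.82 and -1.44 in XC, and Cdkn1a gave 1.72 and 1.35 in TG and 2.68 and 1.72 in XC. These 6 genes therefore had 1 sign in both series and both stages, with larger decreases of Btg1, Tob1 and Cdkn1b in TG, whereas Cdkn2d was at 0.41 and 0.36 in TG and -0.28 and 0.15 in XC. With the XC libraries alone no member passed in mid liver, and late liver had a single XC library.

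The 2 early liver libraries, both from day 7, were unlike each other. Early liver 1 lay below all controls for Btg1 (529 CPM), Btg2 (233), Tob1 (32.1), Cdkn1b (28.1) and Cdkn2d (68.7). It was just below them for Slfn2 (283, lowest control 288) and above them for Cdkn1a (14.4) and Cdkn2c (11.5). The share of all genes outside the control range was not counted for either early liver library. Early liver 2 was inside the control range for Btg1 (1180.0 CPM), Btg2 (306), Cdkn1a (3.48), Cdkn1b (60.2) and Cdkn2c (2.88). It was above the range for Tob1 (105), and below it for Slfn2 and Cdkn2d. Some of these places depended on the scale. In TPM Slfn2 was at 188 in early liver 1, inside the controls (181 to 190), and at 204 in early liver 2, above them. Early liver 2 was in TPM also above the highest control for Btg1 (571 against 482) and Cdkn1b (24.3 against 23.6). Cdkn1a was 4.14 times and Cdkn2c 3.995 times higher in early liver 1, while Btg1 was 2.23, Tob1 3.28 and Cdkn1b 2.14 times higher in early liver 2. The proliferation genes Mki67 and Top2a were at 82.4 and 90.8 CPM in early liver 1 and at 1.29 and 3.95 in early liver 2, beside 1.04 to 13.2 and 4.58 to 13.7 in controls. As a group against control, early liver had 0 members past the threshold in edgeR, 0 at an unadjusted p under 0.05 and 0 by DESeq2 (adjusted p 0.489 to 0.924 in edgeR), with 0% of all genes called. Over all genes 1493 had an unadjusted p under 0.05, and DESeq2 called 350. Without early liver 2, Cdkn1a and Cdkn2c passed, as did 12.9% of all genes (1883). That fit has early liver 1 as the sole library of its group and assumes that it varies like the other groups.

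The comparisons in which nothing passed were the remaining ones. Early spleen, which shares its tissue with the controls, had member adjusted p-values of 0.894 to 0.999 and 0% of 15449 genes called (970 genes at an unadjusted p under 0.05, and 15 by DESeq2). Early liver against early spleen, on the same day, gave 0.545 to 0.984 and 0% called (1391 unadjusted, 59 by DESeq2), with Cdkn1a the only member with an unadjusted p under 0.05 (log2 2.17 ± 0.83). Late against mid liver gave 0.936 to 0.998 and 0% called (780 unadjusted, 32 by DESeq2). In these last 3 comparisons DESeq2 called 0 members, and in the first and last no member had an unadjusted p under 0.05. Groups of 2 or 3 libraries limit these tests, which do not show that levels were equal.

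Compared per length, in TPM (length-scaled transcript abundance), the order of the members changed between controls and late liver. In controls Btg1 led with a mean of 459 TPM, followed by Slfn2 (185), Btg2 (131), Cdkn2d (110.5), Tob1 (30.1), Cdkn1b (20.6), Cdkn1a (3.35), Cdkn2c (3.08) and Cdkn2a (0.0158). In late liver Slfn2 (165.5) and Btg1 (162) stood at a like level with overlapping ranges, ahead of Cdkn2d (103), Btg2 (37.4), Cdkn2c (13.0), Cdkn1a (9.0), Cdkn1b (7.34), Tob1 (6.34) and Cdkn2a (0.487). Cdkn1b thus moved from above both Cdkn1a and Cdkn2c to below them on the mean. Cdkn1a made up 5.03 to 19.97% of the Cdkn1a and Cdkn1b TPM in controls and 40.6 to 75.1% in mid and late liver, with 58.0% in early liver 1 and 12.2% in early liver 2. Within the INK4 genes measured, Cdkn2d supplied 87.5 to 98.0% of the TPM in every library. The share of Cdkn2c was 1.99 to 3.13% in controls and the undivided library and 7.63 to 12.0% in mid and late liver. These are shares of whole genes. Cdkn2d-201, with an annotated coding length of 150 bases, took 75.5 to 83.3% of the Cdkn2d counts in controls and 74.7 to 84.05% in mid and late liver. Cdkn2d-203 and Cdkn2d-202 have coding lengths of 498 and 489 bases. How much of the Cdkn2d message could encode p19 was not tested.

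**Figure D3:**
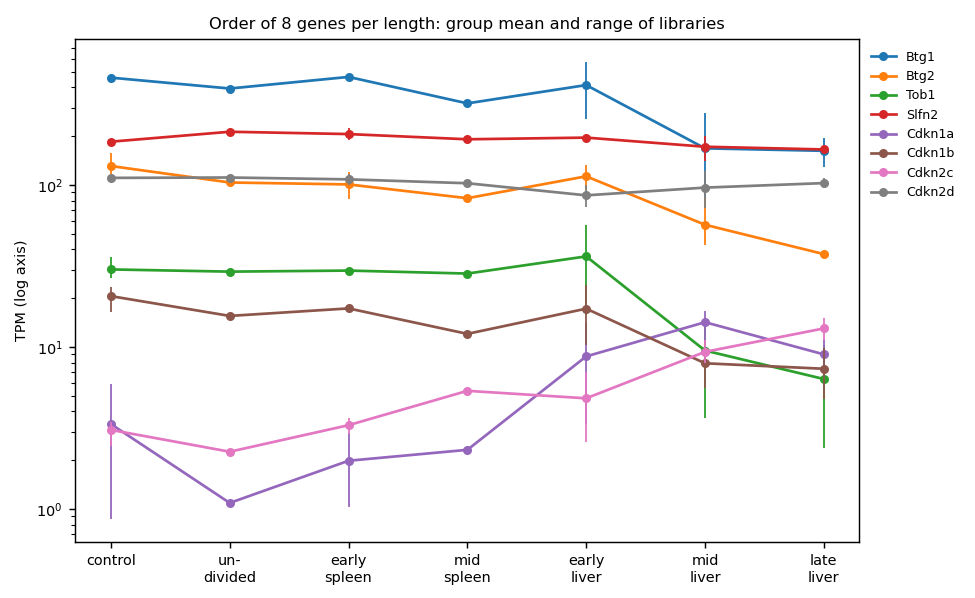
Mean TPM (log axis) of 8 members in each group, with vertical lines from the lowest to the highest library; Cdkn2a is left out because most of its values were 0 or near it. Slfn2 and Cdkn2d run nearly level, Btg1 and Btg2 decline, and the lines of Cdkn1b and Tob1 cross those of Cdkn2c and Cdkn1a between early and late liver.

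The Cdkn2c change lay in 1 of its 2 annotated transcripts. Cdkn2c-202, 2471 bases long, starts 1817 bases upstream of Cdkn2c-201, which is 1106 bases long, and both hold the same 504-base coding length. Cdkn2c-202 was assigned 13.0 to 45.0% of the gene's counts in controls, 77.8 to 96.6% in mid liver and 80.4 to 94.9% in late liver. In CPM of the library total it stood at 0.355 to 2.19 in controls and 13.7 to 29.5 in mid and late liver. Cdkn2c-201 ranged from 2.36 to 3.57 CPM in controls and from 0.616 to 5.31 in mid and late liver, with no such separation. The mid spleen library (75.3%) and early liver 1 (83.6%) had the high share of Cdkn2c-202, and early liver 2 (42.9%) the low one. Because the 2 transcripts differ in length, counts scaled from TPM gave smaller gene changes, of 1.75 in mid and 2.36 in late liver on the log2 scale. The stretch printed above lies before the start of Cdkn2c-201, and no bases outside annotated exons were left to print before the RefSeq start nearest Cdkn2c-202.

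Cdkn1a changed in make-up as well. Cdkn1a-203, which has the most downstream start of the 3 main transcripts, took 46.4 to 72.4% of its counts in controls and 0.792 to 36.9% in mid and late liver. Cdkn1a-202 took 0 to 17.1% in controls and 29.4 to 57.1% in mid and late liver. The starts of Cdkn1a-202 and Cdkn1a-201 lie 2790 bases apart, and those of Cdkn1a-201 and Cdkn1a-203 lie 4131 apart. For Cdkn1b, Cdkn1b-202 took 38.5 to 43.4% in controls and 17.1 to 42.6% in mid and late liver, with overlap. Cdkn1b-201 took 44.8 to 52.6% in controls and 54.1 to 75.1% in mid and late liver, without overlap. All these assignments of reads to transcripts that share exons are estimates, given without a test.

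**Figure D4:**
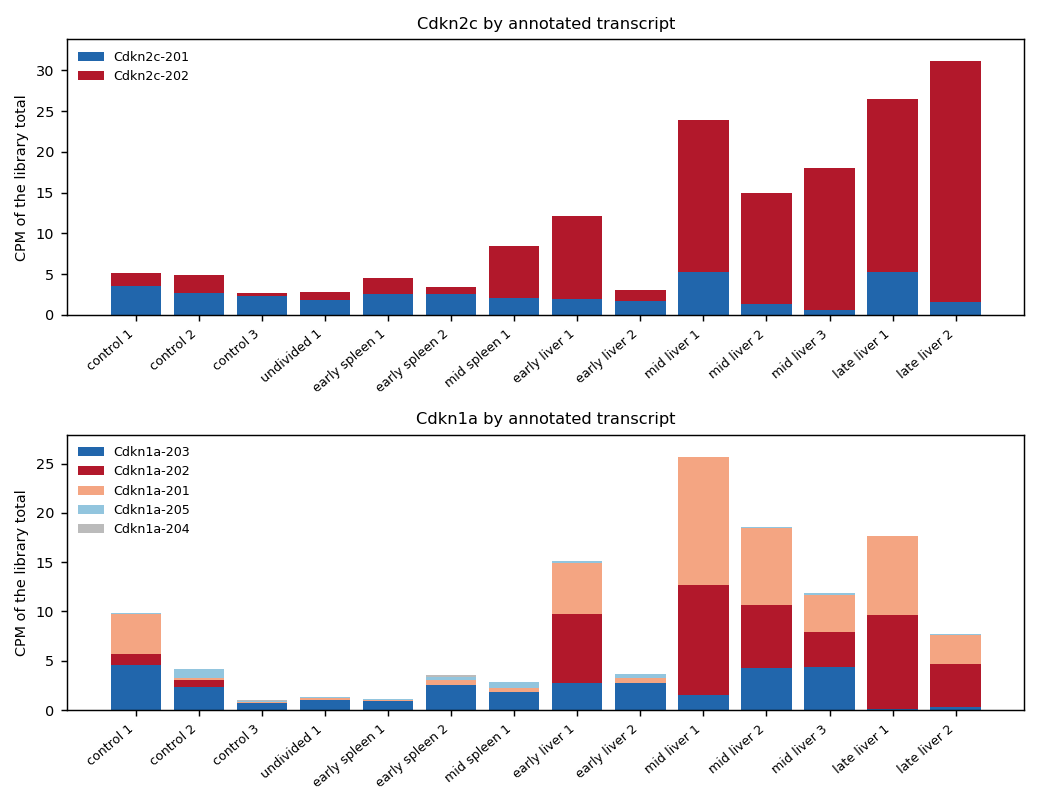
Cdkn2c and Cdkn1a levels by annotated transcript, in CPM of the library total, as bars stacked from 0 in each of the 14 low-input libraries. Cdkn2c-202 (red, upper panel) makes up most of each mid and late liver bar, and Cdkn1a-203 (blue, lower panel) the largest share of the short bars of the controls, undivided, spleen and early liver 2 libraries.

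Over the 14 libraries the members were set beside Mki67, a proliferation marker, as a description over libraries that share series and depth differences. Pearson's r of log2 CPM with Mki67 was 0.95 for Cdkn2c and 0.80 for Cdkn1a. It was -0.82 for Btg1, -0.81 for Tob1, -0.79 for Cdkn1b and -0.62 for Btg2, and 0.36 for Slfn2 and 0.29 for Cdkn2d. The 5 proliferation genes (Mki67, Top2a, Pcna, Mcm2, Mcm5) summed to 267 to 316 CPM in controls, 324.5 in the undivided library, 876 in mid spleen, 1027 to 2071 in mid liver and 1711 to 2243 in late liver. Their part in the members' values was not tested. Among 5882 well expressed genes (mean log2 CPM of at least 5), those with the profile nearest each member over the 14 libraries were Hbp1 (r = 0.99) and Tsc22d3 (0.97) for Btg1, Sertad2 (0.94) and Dmac2 (0.93) for Btg2, and Tiparp (0.99) and Tecpr1 (0.98) for Tob1. For the inhibitors they were Usp3 (0.98) and Tsc22d3 (0.98) for Cdkn1b, Odc1 (0.93) and Wdr12 (0.92) for Cdkn1a, Pgd (0.98) and Cdc20 (0.98) for Cdkn2c, and Anapc16 (0.97) and Atp6v1g1 (0.96) for Cdkn2d. Slfn2 had Actr10 (0.91) and Sdf2 (0.91). Tsc22d3 was thus named for both Btg1 and Cdkn1b, whose own correlation was 0.96. Which genes came first depended on the libraries. Over the 11 libraries without early and mid spleen, Tsc22d3 for Btg1 and Tecpr1 for Tob1 ranked 4, Dmac2 5, Actr10 9, Sdf2 7, Wdr12 13, Pgd 5 and Cdc20 7, each still at r of 0.90 or above, and the other 8 kept a rank of 1 or 2.

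The other genes of these pathways numbered 84, of which 83 were tested. In mid liver 25 were higher, 14 lower and 44 did not pass, and in late liver 24 were higher, 13 lower and 46 did not pass. Over all genes 17.3% were higher and 13.9% lower in mid liver, and 19.8% and 17.7% in late liver, the shares beside which each list's counts stand. The pathway genes had a median log2 fold change of 0.15 and 0.21. Of the 13 other BTG/TOB and CCR4-NOT genes, 4 were higher in both stages. They were Btg3 (log2 0.62 in mid and 0.70 in late liver), Cnot9 (1.10 and 1.35), Cnot11 (0.60 and 0.82) and the poly(A)-binding protein gene Pabpc1 (0.73 and 0.68). Tob2, the nearest relative of Tob1, stood at -0.21 and -0.15 (adjusted p = 0.424 and 0.608). Of 6 other Schlafen genes, 3 were lower in both stages, namely Slfn8 (-1.71 and -2.84), Slfn5 (-1.71 and -2.59) and Slfn1 (-1.09 and -1.34). The Schlafen genes share sequence, and reads could be split among them and Slfn2.

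The remaining CDK inhibitors were scarce or uneven. Cdkn1c (p57) was lower in mid liver (-1.35 ± 0.43, adjusted p = 0.0446) and not in late liver (-0.57 ± 0.47, adjusted p = 0.354), and Cdkn2b, the neighbour of Cdkn2a, was at -0.49 and 1.19 (adjusted p = 0.608 and 0.25). The kinases that INK4 proteins bind were higher, with Cdk4 at 1.37 and 1.61 and Cdk6 at 1.59 and 2.36. Of their cyclin partners, Ccnd2 (0.68 and 0.57, adjusted p = 0.0839 and 0.168) and Ccnd3 (0.19 and 0.23, adjusted p = 0.53 and 0.488) did not pass, and Ccnd1, a cyclin of other tissues more than of T cells, was lower by the test (-3.99 and -2.56). Ccnd1 was scarce, at 0.455, 3.42 and 4.54 CPM from the lowest to the highest control, 0.109 to 0.3125 in mid liver and 0.397 to 0.653 in late liver, so late liver overlapped the lowest control and its call was lost without control 1, control 2 or either late library. All 7 E, A and B cyclin genes and their kinases were higher in both stages by edgeR, led by Ccnb2 (5.77 and 5.87) and Ccna2 (5.44 and 5.85).

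Of 19 pocket protein, E2F and MuvB genes, 9 were higher in mid and 8 in late liver, where E2f5 was lower (-0.65). The largest values were those of E2f8 (5.33 and 5.44) and Mybl2 (4.66 and 4.75). Rbl2, the p130 pocket protein of resting cells, was at -0.61 and -0.38 and did not pass (adjusted p = 0.0721 and 0.26). Among the 5 genes that act in p27 turnover, Cks1b was higher in both stages (3.97 and 4.40), and Skp2, the F-box protein that targets p27, passed in late liver only (1.02 with adjusted p = 0.0535 in mid, and 1.19 with 0.0394 in late).

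Of the 15 quiescence transcription factors and signal brakes tested, 7 were lower in each stage, beside 13.9% of all genes in mid and 17.7% in late liver. Foxo1, a factor that holds naive T cells in a resting and recirculating state, was at -1.45 and -1.71 (adjusted p = 0.0228 and 0.0152), and Klf2, its known target, at -1.85 and -2.03 (adjusted p = 0.03 and 0.0294). The brake on mTOR signalling Tsc1 (-0.97 and -1.11), Foxp1 (-0.70 and -0.93) and the mRNA-decay gene Zfp36 (-1.51 and -1.35) were also lower in both stages. The p53 list was mixed. In mid liver 2 of its 11 genes were higher (Gadd45b 1.31 and Aen 0.83) and 2 lower (Sesn1 -1.79 and Gadd45a -1.63). In late liver Phlda3 was higher (1.93, adjusted p = 0.0127) and Sesn1 lower (-1.75). Trp53 itself (0.28 and 0.54, adjusted p = 0.349 and 0.123) and Mdm2 (-0.28 and -0.48, adjusted p = 0.218 and 0.0754) did not pass. Without control 1 or with control 3 alone, 0 of the 83 pathway genes passed in either stage. In mid liver 0 also passed without control 2, mid liver 1 or mid liver 3, and in late liver 0 passed without either late library.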

How the data were processed

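RNA was sequenced from CD8+ TCRTg101 T cells in 15 libraries (26 sequencing runs), of which 14 were low-input libraries and 1 a control made with oligo-dT. The authors quantified each run with kallisto on GRCm38 (mm10), with no version given in the sources used here, and deposited estimated counts and TPM per transcript. Here a gene's estimated count was the sum of its transcripts by GENCODE vM21 (116622 of 118783 transcripts matched, 98.9 to 99.2% of the counts of each library) added over the library's runs and rounded to whole numbers. The deposited TPM were summed per gene and averaged over runs with the total counts as weights, and were used to set genes side by side.

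A gene was tested where 6 or more libraries held 10 or more counts, with edgeR 4.0.16 (R 4.3.3; robust quasi-likelihood F test, TMM factors 0.724 to 1.22, two-sided, Benjamini-Hochberg threshold 0.05) with group and title series as terms. Liver comparisons were fitted over 11 libraries (14600 genes, without early and mid spleen) and early spleen comparisons over 14 (15449 genes). Intervals are 95%. DESeq2 1.42.0 was an alternative, with others listed in the closing section, and all but the fit with the day 18 control alone were fixed earlier, that one being chosen after seeing the data. Python 3.11.15 (matplotlib 3.10.9, scipy 1.17.1, pandas 2.3.3, numpy 2.4.6) made the tables and figures. The procedure was tested on simulated data with 200 genes changed by 2 on the log2 scale. Of these, 62.5% were recovered in mid liver versus control, 56.0% in late liver versus control and 49.5% in early spleen versus control. Unchanged genes called numbered 7, 8 and 4. The simulated data held no title series effect, and in the liver comparisons far fewer changed genes than were called here. The recovery rates therefore do not give the power of the tests above.

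All 9 members are named. Of the pathway lists, genes past the threshold in mid or late liver may be named, with the 2 largest late changes of each list and Foxo1, Klf2, Ccnd2, Ccnd3, Cdk4, Cdk6, Rbl2, Skp2, Trp53 and Mdm2, and for each member the 2 genes of highest correlation. Mki67 and Top2a are named as proliferation marks, and Tob2 and the marker genes Alb and Trf were named after their values were seen. The members and lists were chosen with earlier results of these data known. Protein sequences were not used here. Depth limits the precision of scarce genes, and the intervals given for Cdkn2a cover counting error only.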

Additional observations from a re-analysis of the deposited data

Results flagged for a closer look

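A control library primed with oligo-dT, the sole one of its kind, entered no comparison. On plain CPM of the library total some members lay above all 3 low-input controls, and others below or among them. The share of all genes outside the control range in this library was not counted, so whether these places are particular to the members is not known. Btg1 was at 1933 CPM (controls 992.7 to 1420.0), Tob1 at 119 (62.9 to 84.5), Cdkn1b at 309 (46.9 to 77.4) and Cdkn2c at 5.82 (2.75 to 5.17). The Cdkn1b value was 4.89 times the control mean. Slfn2 at 245 CPM and Cdkn2d at 84.1 lay below the controls, and Btg2 at 367 and Cdkn1a at 5.475 lay inside their range. With 1 library no test was made, and the part of the priming method in these values was not tested.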

How the results depend on the processing

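No paired analysis was possible because the labels give no replicate numbers, and the title series was the only block that could be fitted. The log2 fold changes of Btg1, Btg2, Tob1, Cdkn1a, Cdkn1b and Cdkn2c kept their direction in mid, late and combined liver under every alternative run, and the counts of calls did not hold. Of 6 members past the threshold in mid liver, 1 passed with no title series term, 0 with the day 18 control only and 0 with the XC libraries only. In late liver, where 4 had passed, 2 did with no series term, 0 with the day 18 control only, and 7 with no count filter (the 4 with Btg1, Cdkn1a and Cdkn2a, beside 21.3% of 29482 genes). Of 6 in both stages together, 0 passed with the day 18 control only and 0 with XC only. Early liver versus control and early liver versus early spleen each had 1 (Cdkn1a) with no count filter. Leaving out each replicate in turn gave 0 to 5 members in mid liver, 0 to 4 in late liver, 0 to 6 in both together, 0 to 2 in early liver, 0 to 1 in early liver versus early spleen, and 0 in late versus mid liver and in early spleen.

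Of 39 pathway genes in mid liver, 22 passed with no series term, 20 with day 0 controls only, 0 with the day 18 control only and 0 with XC only, and 0 to 31 with a replicate left out. Of 37 in late liver, 0 passed with the day 18 control only, and 0 to 32 with a replicate left out.

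Over all genes, 4567 in mid liver became 1385 with no series term, 2332 with day 0 controls only, 1 with the day 18 control only, 0 with XC only and 0 to 3153 with a replicate left out. The 5475 of late liver became 2693, 0 with the day 18 control only, and 0 to 4191. The 6905 of both together became 4238 with no series term, 0 with the day 18 control only, 0 with XC only and 6 to 6206. Early liver versus control went from 0 to 350 by DESeq2, 1480 with no count filter, 20 with day 0 controls only, and 0 to 1883. Late versus mid liver gave 32 by DESeq2, 434 with no filter, 5 with only the groups compared, and 0 to 0. Early spleen gave 15 by DESeq2, 642 with no filter and 0 to 163, and early liver versus early spleen 59, 984 and 0 to 961.

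Sign changes were limited to values that had not passed the threshold. Cdkn2d changed sign in mid liver with no series term (0.0312) and in both stages together with the day 18 control only (-0.0802) or XC only (-0.0803). Ccnd3 in mid liver went to -0.0429 with the day 18 control only and -0.0842 with XC only, and in late liver to -0.0435 with the day 18 control only. Trp53 in mid liver went to -0.0855 and Cdkn1c in late liver to 0.12, both with the day 18 control only. With a replicate left out, Slfn2 ranged from -0.0373 to 0.16 in mid, -0.0452 to 0.54 in late and -0.0059 to 0.30 in combined liver, Cdkn2d from -0.27 to 0.0919 in mid and -0.11 to 0.14 in combined liver, Ccnd3 from -0.0672 to 0.36 in mid and -0.0679 to 0.42 in late liver, Cdkn2b from -0.63 to 2.54 in late liver, and Cdkn2c in early liver from -0.33 to 1.66. The causes were not tested. XC libraries alone were not fitted for late liver, which has 1.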
